A study of Mus musculus with 3 samples.

Results

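The histone genes of the mouse hippocampus were examined in single nuclei, in all 67 genes of the count tables whose symbol begins with Hist, out of 32285 genes. These are the clustered, mostly intronless genes for the linker histone H1 (6 genes) and the core histones H2A (18 genes), H2B (18 genes), H3 (12 genes) and H4 (13 genes). Nuclei were isolated with Triton X-100 from flash-frozen hippocampi of both sides, combined from 4 mice per group, and sequenced with the 10x Genomics single cell 3′ v3 chemistry, which primes on poly(A). There was 1 library for each of 3 groups: mice with no treatment (control), mice given doxorubicin, a chemotherapy drug that traps topoisomerase II on DNA, and mice given both doxorubicin and ACY-1083, which blocks HDAC6, a deacetylase of tubulin. Strain, genotype, age, sex, dose and time are not in the labels. With 1 pooled library per group no test between treatments was possible, and every interval below is a 95% exact interval for counting error alone.

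Nucleosomes are built from an octamer of H2A, H2B, H3 and H4, and H1 binds the DNA between them. In dividing cells most of these proteins are made in S phase from replication-dependent genes whose mRNAs are not polyadenylated: they end just after a short stem-loop that is bound by the stem-loop binding protein Slbp. The same genes can also give polyadenylated transcripts that run past the stem-loop, and these have been described in differentiated, non-dividing cells such as neurons. The label calls the transcripts polyadenylated; poly(A) tails were not measured here, so the label was set beside the gene models only.

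Most gene models of the members carried the stem-loop, and many of these held sequence well beyond it. The 16-base histone stem-loop motif (a stem arm GGNNCT, the loop TTTN and the second arm AGNNCC), searched on the transcript strand of the GENCODE vM21 models (GRCm38), was present in 44 of 67 members and in 72 of all 21901 protein-coding genes, the members included (0.329%). The windows of the 4 members described most closely below are given here, with the motif in capitals, because they show the same element in genes of 4 histone types.
Hist3h2ba: cccaaaGGCTCTTTTCAGAGCCaccttc
Hist3h2a: accaaaGGCTCTTTTCAGAGCCacccac
Hist1h1c: ccaaaaGGCTCTTTTCAGAGCCaccact
Hist1h4i: cttaaaGGCCCTTTTTAGGGCCaccaca
The models of Hist3h2ba, Hist3h2a, Hist1h1c and Hist1h4i continued for 169, 1643, 840 and 330 bases after the motif, and the RefSeq models of the same genes ended 161, 1638, 836 and 324 bases short of the GENCODE ends. The hexamer AATAAA, the common polyadenylation signal, lay within the last 50 bases of the longest protein-coding transcript in 14 of 67 members, against 12966 of 21901 protein-coding genes (59.2%). The last 30 bases of 3 such models, with the hexamer in capitals, are given as examples of a member with a short extension, one with a long extension and one with no stem-loop in its model.
Hist3h2ba: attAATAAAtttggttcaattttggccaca
Hist1h1c: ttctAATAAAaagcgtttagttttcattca
Hist2h2be: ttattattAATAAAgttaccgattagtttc

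UMIs (molecule counts) were unevenly spread over the members, and most lay in genes whose models run well past the stem-loop. The usual 3′ counting takes only reads inside a gene model, so a model that ends near the stem-loop collects none from beyond it. The part of this in the split below was not tested. Of the 67 members, 7 had no UMI in any library, 27 had 1 to 19 UMIs, 15 had 20 to 99, and 18 had at least 100 over the 3 libraries. Those 18 held 94.9% of the 19298 UMIs of the family. Hist3h2ba (an H2B gene, 4966 UMIs) and Hist3h2a (an H2A gene, 3224 UMIs), neighbours on chromosome 11, together held 42.4%. The 22 members with at least 100 bases after the stem-loop had a median of 126 UMIs and held 81.3% of the UMIs. The 22 members with a stem-loop and under 100 bases after it had a median of 8.5 UMIs and held 3.73%. The 23 members with no stem-loop in their model had a median of 13 UMIs and held 15%. This group describes the models, not the genes, because many of its models end before the RefSeq end. Examples are Hist1h2bl, Hist1h2ai and Hist1h3h, with 381, 393 and 411 bases here and 473, 448 and 488 in RefSeq. The model of Hist2h2be, in contrast, reaches the RefSeq end.

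Sequence shared between members moved with the same split. The median share of a member's 50-base windows that also occur in another member was 18.0% where at least 100 bases followed the stem-loop, 59.9% where under 100 did and 71.5% where the model held no stem-loop. By UMIs, it was 22.2% for the 18 members with at least 100 UMIs and 90.7% for the 7 members at 0. Hist2h2aa2, at 0 UMIs, shared 100% of its windows. Reads that match more than 1 gene are not assigned to either by the usual 3′ counting, and the part of this in the low counts was not tested. Counts of members with much shared sequence, such as Hist1h3e (73.4%), Hist1h4h (45.8%) and Hist1h2ae (43.2%), are uncertain for that reason.

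**Figure D1:**
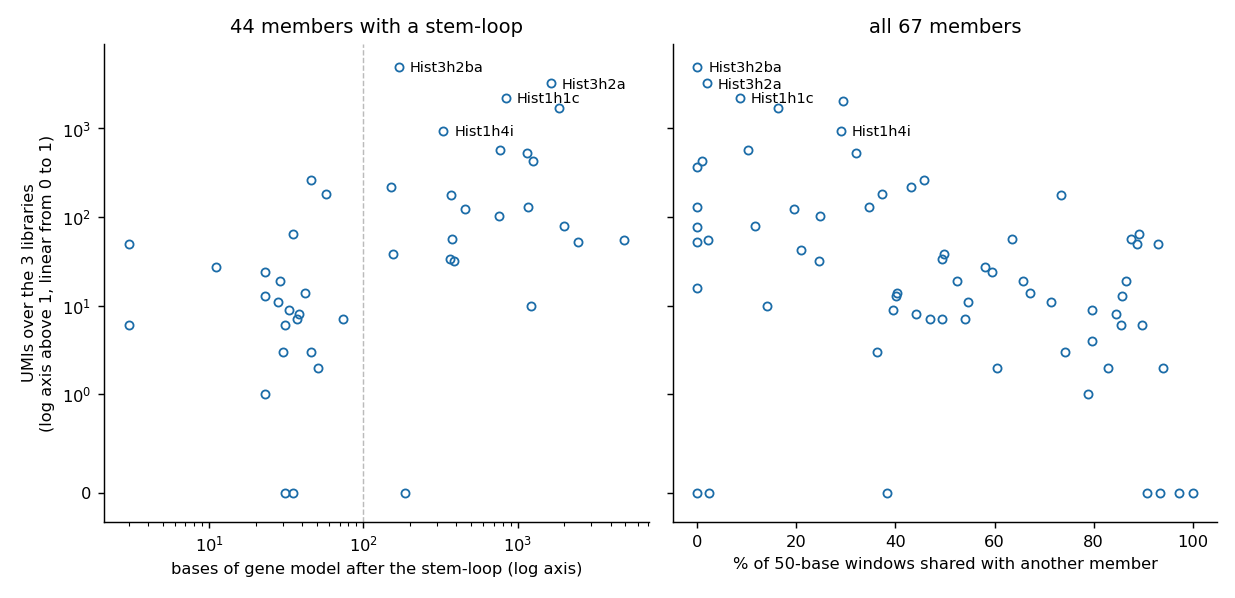
UMIs of each histone gene over the 3 libraries (y axis, log above 1 UMI) against the bases of its gene model after the stem-loop (left, 44 members, log axis, dashed line at 100 bases) and against the percent of its 50-base windows shared with another member (right, 67 members). Each circle is 1 gene; the genes with the most UMIs, such as Hist3h2ba at 4966, lie right of the dashed line and toward low sharing.

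Every promoter window of H1, H2A, H2B and H3 members held CCAAT, and few of those of H4 members did. CCAAT, a box bound by the factor NF-Y, was searched on both strands of the RefSeq promoter windows (GRCm38.p6, 250 bases before to 50 after the start) and was present in 54 of 63 windows of 62 members (85.7%), against 37.4% of all 32851 windows. All 51 windows of H1, H2A, H2B and H3 members held it, and 3 of 12 windows of H4 members did. The windows are not independent: 10 pairs of neighbouring members, such as Hist1h2bl and Hist1h2ai, have overlapping windows, each counted on its own. TATAAA, searched on both strands in the same windows, was present in 35 (55.6%), against 13.6% of all windows. A CCAAT match may share its last base with a TATAAA match, and a match describes the letters only. The windows of Hist3h2ba (chr11:58948661-58948960, plus strand) and Hist3h2a (chr11:58954435-58954734, plus strand) are given because these 2 genes held the most UMIs, with both motifs, on either strand, in capitals.
Hist3h2ba: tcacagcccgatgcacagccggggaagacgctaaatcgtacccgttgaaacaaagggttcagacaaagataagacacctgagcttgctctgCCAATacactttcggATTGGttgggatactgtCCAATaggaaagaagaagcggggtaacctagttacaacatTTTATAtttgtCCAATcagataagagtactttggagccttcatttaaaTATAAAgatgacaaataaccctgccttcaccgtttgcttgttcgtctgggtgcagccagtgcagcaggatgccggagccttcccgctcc
Hist3h2a: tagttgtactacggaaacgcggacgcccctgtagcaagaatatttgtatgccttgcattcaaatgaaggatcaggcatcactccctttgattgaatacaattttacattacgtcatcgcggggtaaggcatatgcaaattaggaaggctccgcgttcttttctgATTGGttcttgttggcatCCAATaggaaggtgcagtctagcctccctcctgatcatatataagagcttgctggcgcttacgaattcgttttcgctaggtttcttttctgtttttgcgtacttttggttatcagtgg
The first window holds 4 CCAAT and the second 2, and the second holds no TATAAA. The window of Hist1h4i, like those of 8 other H4 members, holds no CCAAT; it holds TATAAA.

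The libraries were not alike in how their counts arose. The control and doxorubicin matrices held 19175447 and 21458785 UMIs in 10909 and 12221 barcodes, and the doxorubicin plus ACY-1083 matrix 62151258 UMIs in 12192 barcodes; 10455, 11647 and 11846 nuclei were kept. Per nucleus, genes with at least 10000 bases of intron had a median ratio of 3.46 between the doxorubicin plus ACY-1083 and the doxorubicin library (13077 genes), while single-exon genes other than the members had a median of 1.03 (794 genes). CPM of the doxorubicin plus ACY-1083 library were therefore not set beside the others: doxorubicin was compared with control in CPM (UMIs per 1e6 UMIs of the kept nuclei), and doxorubicin plus ACY-1083 in UMIs per 1000 kept nuclei, with single-exon genes as background. Between 26 and 41 barcodes of kept nuclei were shared by any 2 libraries. Only 5 members have an annotated intron: Hist1h2be (34949 bases), Hist1h2bc (7554), Hist1h2br and Hist1h2bq (1667 each) and Hist1h2bp (1132).

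Histone UMIs as a whole were slightly lower in the doxorubicin than in the control library. The 67 members had 5575 UMIs in the control library (307 CPM), 5743 in the doxorubicin library (283 CPM) and 7980 in the doxorubicin plus ACY-1083 library. The ratio of doxorubicin to control was 0.923 (0.890 to 0.958). By histone type, this ratio was 1.03 for H1 (0.943 to 1.13), 0.899 for H2A (0.830 to 0.974), 0.949 for H2B (0.898 to 1.003), 0.794 for H3 (0.642 to 0.981) and 0.790 for H4 (0.713 to 0.875). H3 and H4 had the lowest ratios and H1 the highest, within counting error of 1. Single genes weighed heavily in the low ratios: Hist1h4i made up most of the H4 difference and Hist1h3d much of the H3 difference. The other H4 genes were not alike, with Hist1h4d above 1 and Hist2h4 below 1. The lower sum was not shared by all subsets: the 23 members with no stem-loop in their model had a ratio of 1.18 (1.07 to 1.30) and the 5 with an intron 1.15 (1.03 to 1.27), both including Hist1h2bc.

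Per 1000 nuclei, the members had 533 UMIs in control, 493 with doxorubicin and 674 with doxorubicin plus ACY-1083; values of 3 libraries below are in this order. The doxorubicin plus ACY-1083 library was 1.37 times the doxorubicin library (1.32 to 1.41). The 5 members with an intron went from 72.1 to 196 UMIs per 1000 nuclei, a ratio of 2.72 (2.51 to 2.94), and the 62 without went from 421 to 478, a ratio of 1.14 (1.09 to 1.18). Control had 470 for the members without intron, so doxorubicin plus ACY-1083 over control was 1.02 (0.977 to 1.06). Scaled to the UMIs of single-exon genes instead of nuclei, the intronless members had a ratio of doxorubicin plus ACY-1083 to doxorubicin of 0.943 (0.907 to 0.980), so its direction depended on the scale.

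Of the 29 members with at least 20 UMIs in the control and doxorubicin libraries together, 0 were at least 1.5-fold higher with doxorubicin (3.22% of 17341 genes and 5.09% of 805 single-exon genes were) and 7 were at least 1.5-fold lower (2.85% of all genes and 6.96% of single-exon genes were). The median log2 ratio was -0.20 over these members and -0.04 over all genes, and the ratio was below 1 in 19 of 29 members. The 7 were Hist1h4i, Hist1h3d, Hist1h2ac, Hist1h3i, Hist1h4j, Hist2h2ab and Hist1h2br; 5 of them have under 100 UMIs in all.

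Between the doxorubicin plus ACY-1083 and the doxorubicin library, 30 members had at least 20 UMIs. Of these, 7 were at least 1.5-fold higher per nucleus (72.0% of 20240 genes and 8.28% of 821 single-exon genes were) and 1, Hist1h1b, was at least 1.5-fold lower (0.588% of all and 4.99% of single-exon genes were). Over the 27 members without intron among them, 5 were higher, and the median log2 ratio was 0.30 against 0.05 over single-exon genes. Against control, 7 of 31 members were at least 1.5-fold higher with doxorubicin plus ACY-1083 (71.9% of all and 5.69% of single-exon genes were) and 1 was lower (0.486% and 3.34%). Both comparisons with doxorubicin share that library.

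**Figure D2:**
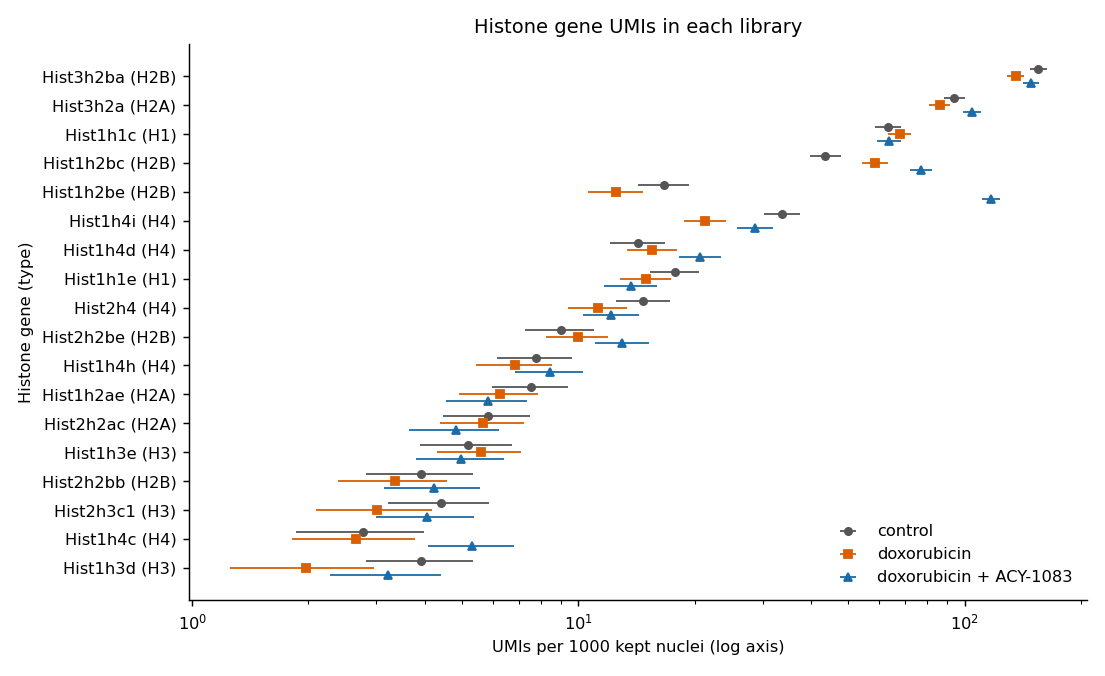
UMIs per 1000 kept nuclei (x axis, log) of the 18 histone genes with at least 100 UMIs, in the control (circles), doxorubicin (squares) and doxorubicin plus ACY-1083 (triangles) libraries; bars are 95% Poisson intervals. For most genes the 3 points lie close together; Hist1h2be stands out at 117 in the doxorubicin plus ACY-1083 library against 16.6 and 12.5.

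The linker histones had 84.9, 87.8 and 81.8 UMIs per 1000 nuclei. On the single-exon scale they were lower with doxorubicin plus ACY-1083, at 0.774 times doxorubicin (0.708 to 0.845) and 0.785 times control (0.716 to 0.860). Hist1h1c (H1.2; GRCm38 chromosome 13, 23738808 to 23740367), the H1 gene with the most UMIs, had 663, 791 and 756 UMIs, or 63.4, 67.9 and 63.8 per 1000 nuclei. The doxorubicin library was the highest, and the intervals of the 3 overlapped. Its ratio of doxorubicin to control was 1.07 (0.963 to 1.19). Hist1h1e (H1.4; chromosome 13, 23620629 to 23622558) had 186, 174 and 162 UMIs, or 17.8, 14.9 and 13.7 per 1000 nuclei. Control was the highest and doxorubicin plus ACY-1083 the lowest, with a ratio to control of 0.769 (0.619 to 0.954). Hist1h1e overlaps Hist1h2be, the member with the longest intron, on the same strand, so the counting could split or drop reads there. The other 4 H1 members had 77 UMIs or fewer each, and Hist1h1t, known from testis, had 0.

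Among the H2A genes, Hist3h2a had the most UMIs. Hist3h2a (RefSeq H2aw; chromosome 11, 58954685 to 58956830) had 983, 1003 and 1238 UMIs, or 94.0, 86.1 and 105 per 1000 nuclei. The doxorubicin library was the lowest of the 3 and the doxorubicin plus ACY-1083 library the highest. The ratio of doxorubicin to control was 0.914 (0.837 to 0.999) and that of doxorubicin plus ACY-1083 to doxorubicin 1.21 (1.12 to 1.32); on the single-exon scale without mitochondrial genes the latter was 0.999 (0.918 to 1.09). Its model overlaps Trim17 on the same strand. Hist1h2ae had 79, 73 and 69 UMIs, and Hist2h2ac had 61, 66 and 57. For both genes the doxorubicin plus ACY-1083 library was the lowest per nucleus, unlike for Hist3h2a, and the intervals of all ratios included 1.

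The H2B genes held the largest share of the UMIs, 48.8%. Hist3h2ba (RefSeq H2bu2; chromosome 11, 58948920 to 58949533) had 1624, 1581 and 1761 UMIs, or 155, 136 and 149 per 1000 nuclei. The doxorubicin library was the lowest, at a CPM ratio to control of 0.872 (0.814 to 0.936). Doxorubicin plus ACY-1083 over doxorubicin was 1.10 (1.02 to 1.17) per nucleus but 0.901 (0.841 to 0.965) on the single-exon scale without mitochondrial genes. None of its 50-base windows occurs in another member.

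Hist1h2bc (chromosome 13, 23684199 to 23692908, with 7554 bases of intron) was the only one of the 18 genes whose doxorubicin to control ratio had an interval above 1. It had 456, 683 and 913 UMIs, or 43.6, 58.6 and 77.1 per 1000 nuclei. Control was the lowest and doxorubicin plus ACY-1083 the highest, and the 3 intervals did not overlap. The CPM ratio of doxorubicin to control was 1.34 (1.19 to 1.51), below the 1.5-fold line. The headers of control and doxorubicin name the same software version; for the third library the software and the treatment cannot be told apart.

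Hist1h2be (chromosome 13, 23583670 to 23621124) carries the longest intron of the family, 34949 bases. It had 174, 146 and 1388 UMIs, or 16.6, 12.5 and 117 per 1000 nuclei. The doxorubicin plus ACY-1083 library was far above the other 2, at 9.35 times doxorubicin (7.88 to 11.2), beside the median of 3.46 for genes with long introns; the part of intron counting in this ratio was not tested. Without that library, doxorubicin over control was 0.752 (0.599 to 0.942). Hist2h2be, an intronless H2B gene, had 94, 116 and 154 UMIs, with doxorubicin plus ACY-1083 over control at 1.45 (1.11 to 1.89). Hist2h2bb had 41, 39 and 50 UMIs and overlaps the antisense gene Gm20628 and Gm42743, so its counts are uncertain.

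The H3 genes were the least counted type, with 590 UMIs over 12 members. Hist1h3e had 54, 65 and 59 UMIs, Hist2h3c1 had 46, 35 and 48, and Hist1h3d had 41, 23 and 38. Hist1h3d was lowest in the doxorubicin library, with a CPM ratio to control of 0.503 (0.288 to 0.858). This ratio is the lowest of the 18 genes and rests on 64 UMIs in the 2 libraries.

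**Figure D3:**
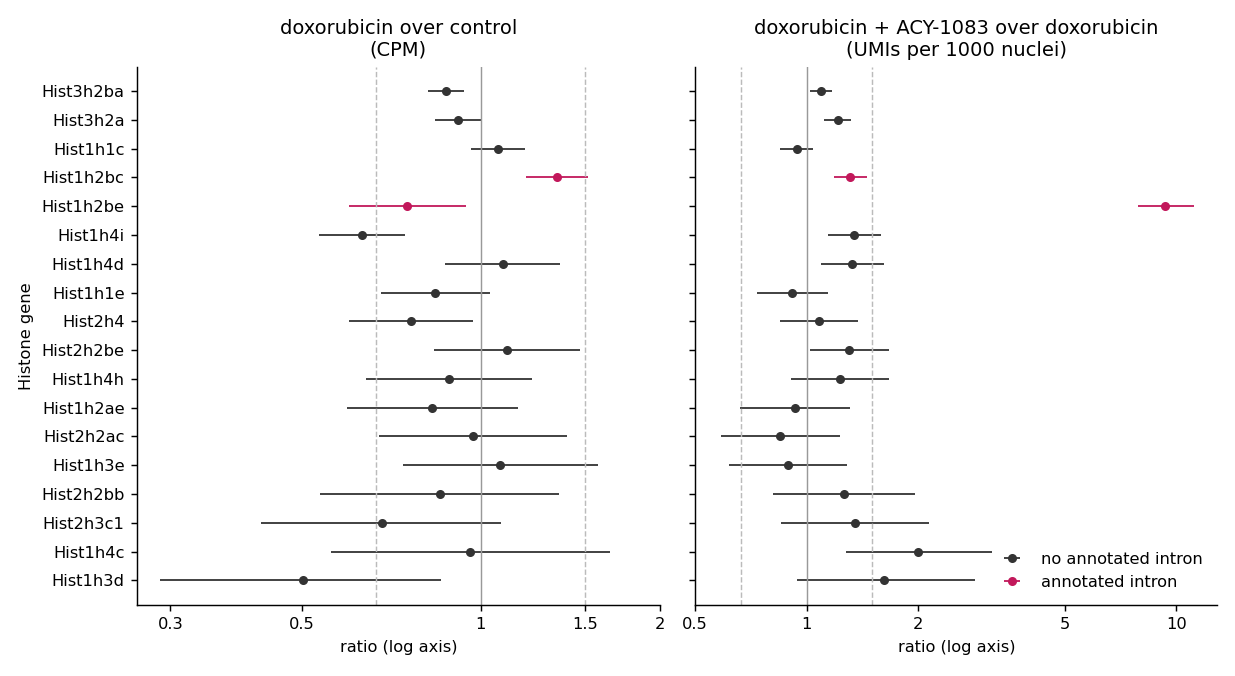
Ratios between libraries (x axis, log) for the same 18 histone genes: doxorubicin over control in CPM (left) and doxorubicin plus ACY-1083 over doxorubicin in UMIs per 1000 nuclei (right); bars are 95% counting intervals, dashed lines mark 1.5-fold either way, and magenta marks the 2 genes with an annotated intron. On the left Hist1h4i (0.631) and Hist1h3d (0.503) lie past the lower dashed line; on the right Hist1h2be (9.35) lies far from the rest.

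Of the 5 H4 genes with at least 100 UMIs, Hist1h4i had the lowest ratio of doxorubicin to control. Hist1h4i (RefSeq H4c9; chromosome 13, 22040636 to 22041362) had 352 UMIs in control, 248 with doxorubicin and 340 with doxorubicin plus ACY-1083, or 33.7, 21.3 and 28.7 per 1000 nuclei. The doxorubicin value was below both others without overlap of the intervals. Its CPM were 19.4 in control and 12.2 with doxorubicin, a ratio of 0.631 (0.534 to 0.745). Doxorubicin plus ACY-1083 over doxorubicin was 1.35 (1.14 to 1.59) per nucleus and 1.11 (0.939 to 1.31) on the single-exon scale without mitochondrial genes. Another member shares 28.9% of its 50-base windows.

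Hist1h4d had 149, 181 and 245 UMIs, with doxorubicin over control at 1.09 (0.872 to 1.36) and doxorubicin plus ACY-1083 over doxorubicin at 1.33 (1.09 to 1.62). Hist2h4 had 154, 131 and 144 UMIs, with doxorubicin over control at 0.762 (0.599 to 0.969). Hist1h4h had 81, 80 and 100, and all its intervals included 1. Hist1h4c, with 29, 31 and 63 UMIs, was higher in the doxorubicin plus ACY-1083 library, at 1.998 times doxorubicin (1.28 to 3.18). Of these 5 H4 genes, all but Hist1h4d had their lowest count per nucleus in the doxorubicin library, with intervals below 1 for Hist1h4i and Hist2h4 alone.

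Nuclei were grouped by joint clustering without the members, and each cluster was called a likeness of a cell class from marker genes. The 3 libraries gave 35 clusters, of which 17 held nuclei of the doxorubicin plus ACY-1083 library alone. So for 10 of the 11 classes compared, all but the fibroblast-like class, nearly all nuclei of that library lie in a cluster of their own, while control and doxorubicin nuclei share 1 cluster. The compared classes had at least 100 kept nuclei in each library: dentate gyrus granule neuron-like (2572, 2623 and 2614 nuclei; clusters 0 and 23), CA1 (4 and 24) and CA2/CA3 (3 and 27) pyramidal neuron-like, subicular or cortical excitatory neuron-like (9 and 32), GABAergic neuron-like (5 and 30), astrocyte-like (6 and 21), oligodendrocyte-like (2 and 19), oligodendrocyte precursor-like (15 and 25), microglia-like (14 and 28), fibroblast-like (1) and choroid plexus epithelium-like (17 and 34). Unnamed clusters held 1228, 1737 and 2060 nuclei. The subicular or cortical class held 1484, 1356 and 413 nuclei. The unnamed cluster 26, with 439 nuclei of the doxorubicin plus ACY-1083 library, shared Tshz2, Rxfp1, Sgcz and Vwc2l with cluster 9 among its 10 leading genes. Cluster 22, with 783 nuclei of that library, scored highest for the subicular or cortical class (median log2 fold 0.78). It stayed unnamed, with a mean of 0.42, under the 0.5 set for naming. Cluster 18, with 549 nuclei of that library, scored highest for the GABAergic class (median 0.84, mean 0.48) and also stayed unnamed. However, 0 of its 10 leading genes were markers of that class, and they included Gm42418, Ttr, Cck and Tmsb4x. Its median was 858 UMIs, against 3849.5 for that library. The GABAergic class itself held 757, 783 and 737 nuclei. Whether these 2 classes hold like nuclei in all libraries was not tested.

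Histone UMIs were counted in nuclei of neuron-like as well as glia-like classes. Free RNA in the droplets was not measured here, so its part in the level of any class was not tested. The 5 neuron-like classes together had 3417, 3227 and 4541 histone UMIs, or 534, 494 and 817 per 1000 nuclei, and the 6 other classes had 1295, 1401 and 1693, or 486, 445 and 464. In the control library the class level ran from 187 CPM in CA2/CA3-like neurons to 829 CPM in choroid plexus-like nuclei, with granule neuron-like nuclei at 391 and astrocyte-like nuclei at 558. The order depended on the scale: per 1000 nuclei, CA2/CA3-like neurons at 638 were above all other neuron-like classes, choroid plexus-like nuclei again highest at 1089 and fibroblast-like nuclei lowest at 324. Top2a, a topoisomerase made in dividing cells, had 0 UMIs in the control nuclei of each neuron-like class, and 0 to 3 in the other libraries, while oligodendrocyte precursor-like nuclei, a class that divides in adult brain, had 10, 20 and 19. Mki67, another gene of cycling cells, went against this: it had 93, 96 and 478 UMIs in granule neuron-like and 0, 2 and 6 in precursor-like nuclei. Those precursors had 370 and 373 CPM of histone UMIs in control and doxorubicin, within the range of the other classes. H2B held the largest share of the histone UMIs of control nuclei in every class but the fibroblast-like one, where H1 held 37.9% and H2B 25.9%. The H4 share ran from 8.2% in precursor-like to 22.7% in choroid plexus-like nuclei and was 22.1% in astrocyte-like and 16.8% in granule neuron-like nuclei.

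Single members had their own distribution over classes. Levels were ranked over classes with 50 or more UMIs of the member in the 3 libraries together, 9 of the 11 for Hist3h2ba and 10 for Hist1h2bc. In control, Hist3h2ba had 130 CPM in oligodendrocyte precursor-like nuclei and 124 CPM in granule neuron-like nuclei. Its lowest level of the 9, 41.8 CPM, was in astrocyte-like nuclei. Hist1h2bc ran the other way, at 110 CPM in astrocyte-like and 151 CPM in choroid plexus-like nuclei against 7.65 CPM in GABAergic neuron-like nuclei. Hist1h4i was at 113 CPM in choroid plexus-like, 48.6 in astrocyte-like and 34.6 in granule neuron-like nuclei, and between 7.19 and 11.1 CPM in the other neuron classes with 50 UMIs or more. In the doxorubicin library the highest and lowest of the 9 classes for Hist3h2ba were again precursor-like (112 CPM) and astrocyte-like (37.2 CPM) nuclei. In the doxorubicin plus ACY-1083 library, whose CPM are not comparable with the others, precursor-like nuclei were the lowest of the 9 (17.9 CPM) and oligodendrocyte-like nuclei the highest (42.9 CPM).

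**Figure D4:**
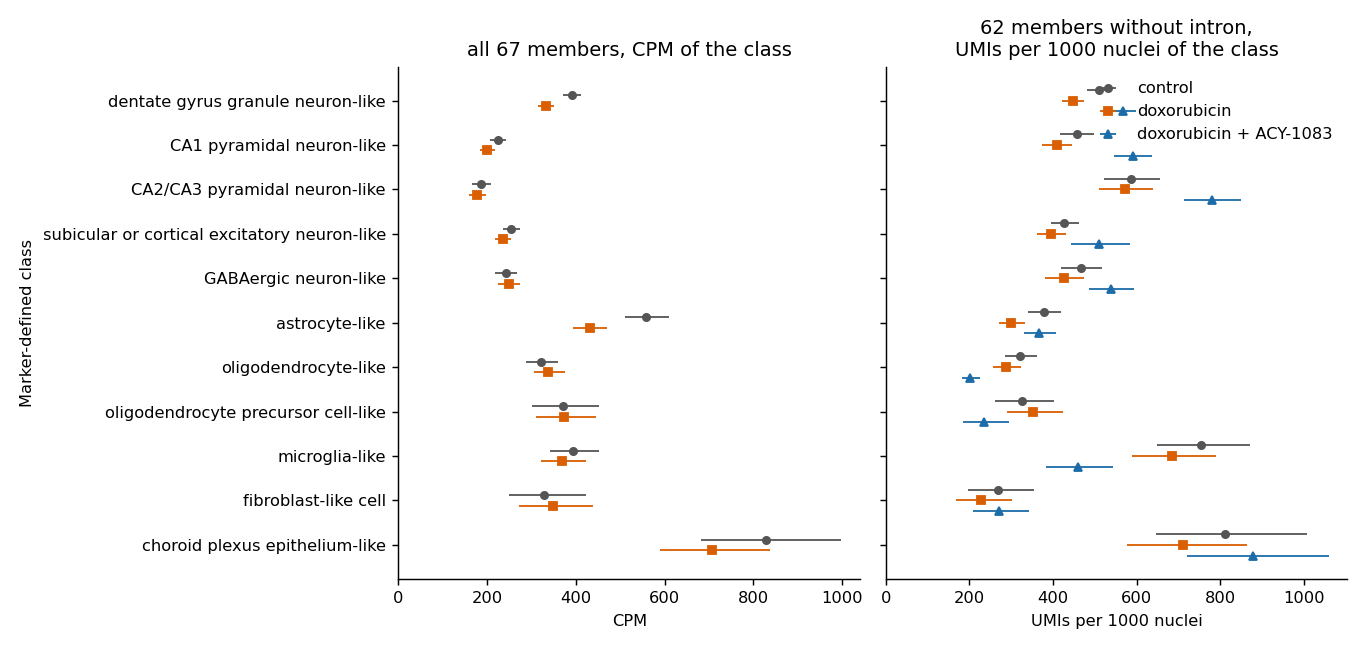
Histone UMIs in 11 marker-defined classes: all 67 members in CPM of the class for control (circles) and doxorubicin (squares) on the left, and the 62 members without intron in UMIs per 1000 nuclei for all 3 libraries (triangles: doxorubicin plus ACY-1083) on the right; bars are 95% Poisson intervals. Doxorubicin lies furthest below control in astrocyte-like nuclei (431 against 558 CPM), and triangles lie right of squares in the 5 neuron classes and left of them in oligodendrocyte-like, precursor-like and microglia-like nuclei.

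Between doxorubicin and control, the summed CPM of the members was lower in 7 of 11 classes and the ratio ran from 0.772 to 1.06, with a median of 0.936. Granule neuron-like nuclei went from 391 to 332 CPM, a ratio of 0.850 (0.789 to 0.916), and astrocyte-like nuclei from 558 to 431 CPM, 0.772 (0.681 to 0.876). In the other 9 classes the interval included 1, for example 0.897 (0.796 to 1.01) in CA1-like, 1.02 (0.887 to 1.18) in GABAergic neuron-like and 1.05 (0.902 to 1.22) in oligodendrocyte-like nuclei. In astrocyte-like nuclei the H4 members stood at 123 CPM in control (109 UMIs) and 58.0 with doxorubicin (67 UMIs), a ratio of 0.471 (0.342 to 0.644). There, Hist1h4i was at 48.6 and 22.5 CPM and Hist1h1e at 26.0 and 12.1, while Hist1h2bc was at 110 and 111 and Hist1h1c at 87.0 and 86.6. So the lower sum was not shared by every member of that class.

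Hist1h4i was lower with doxorubicin in 5 of the 6 classes in which it had 50 or more UMIs. In granule neuron-like nuclei it had 130, 72 and 145 UMIs, or 50.5, 27.4 and 55.5 per 1000 nuclei; the doxorubicin value lay below the other 2 without overlap. Its CPM there were 34.6 in control and 18.0 with doxorubicin, a ratio of 0.520 (0.384 to 0.699), and doxorubicin plus ACY-1083 over doxorubicin was 2.02 (1.51 to 2.72) per nucleus. In astrocyte-like nuclei it had 43, 26 and 34 UMIs, a ratio of doxorubicin to control of 0.463 (0.273 to 0.771). The ratio was 0.660 in CA1-like (27 and 21 UMIs), 0.733 in CA2/CA3-like (19 and 15) and 0.620 in choroid plexus-like nuclei (15 and 13), each with an interval that included 1. In subicular or cortical neuron-like nuclei it was 1.40 (0.752 to 2.65; 20 and 26 UMIs). This gene had been singled out in earlier results of these data, so its values are a description.

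**Figure D5:**
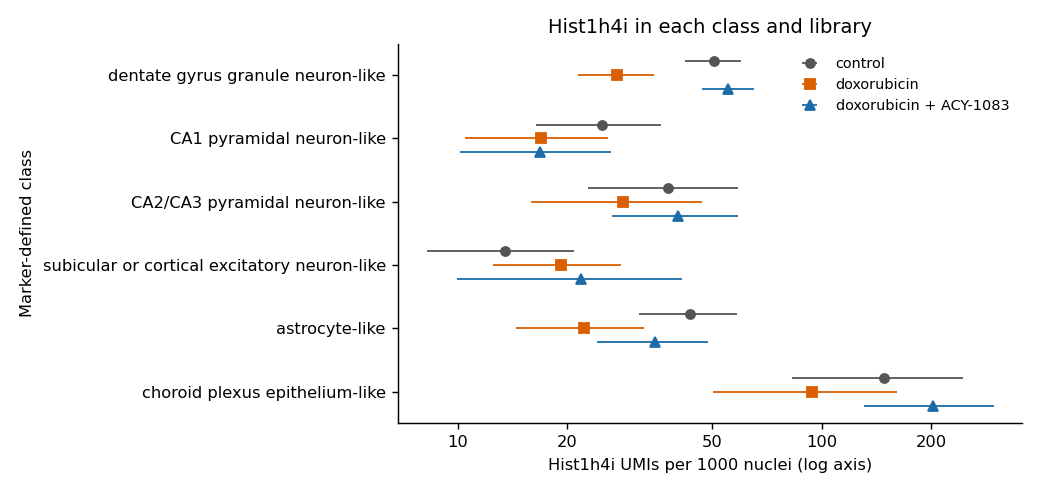
Hist1h4i UMIs per 1000 nuclei (x axis, log) in the 6 classes with at least 50 of its UMIs, for control (circles), doxorubicin (squares) and doxorubicin plus ACY-1083 (triangles); bars are 95% Poisson intervals. The squares lie left of the circles in all classes but the subicular or cortical one; in granule neuron-like nuclei the values are 50.5, 27.4 and 55.5.

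Other members also differed within single classes. In granule neuron-like nuclei Hist1h2ae had 30 UMIs in control and 14 with doxorubicin, a CPM ratio of 0.438 (0.215 to 0.852), and Hist1h2be had 43 and 22, a ratio of 0.480 (0.274 to 0.821). In GABAergic neuron-like nuclei Hist1h2bc had 12 and 34 UMIs, a ratio of 2.85 (1.44 to 6.04), and in CA1-like nuclei 30 and 57, a ratio of 1.61 (1.02 to 2.60). In astrocyte-like nuclei, which had the most Hist1h2bc UMIs among the non-neuronal classes in control, it was level at 1.01 (0.770 to 1.33). Hist1h1c in fibroblast-like nuclei had 20 and 10 UMIs, a ratio of 0.434 (0.181 to 0.970). Among the unnamed clusters Hist1h2bc had 50 and 116 UMIs, a ratio of 1.75 (1.25 to 2.49); 1 of these clusters (cluster 10) held 195 control and 550 doxorubicin nuclei, and its part in the ratio was not tested. These values were read over all classes and members with 50 UMIs, with no adjustment for their number.

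Between the doxorubicin plus ACY-1083 and the doxorubicin library, intronless members were higher per nucleus in 8 of 11 classes and lower in oligodendrocyte-like, precursor-like and microglia-like nuclei. The split was not one of neurons against other cells: the ratio was also above 1 in astrocyte-like (1.22, 1.05 to 1.42), choroid plexus-like (1.24, 0.934 to 1.64) and fibroblast-like nuclei (1.18, 0.804 to 1.75). The neuron classes together went from 437 to 590 UMIs per 1000 nuclei, a ratio of 1.35 (1.29 to 1.42), and the non-neuron classes from 347 to 297, a ratio of 0.856 (0.787 to 0.932). Both pooled ratios also hold a change in the mix of classes. Oligodendrocyte-like nuclei, with the lowest level in the doxorubicin plus ACY-1083 library (202), went from 1052 of 3149 to 1697 of 3650 non-neuron nuclei. Subicular or cortical neuron-like nuclei went from 1356 of 6530 to 413 of 5557 neuron nuclei. The part of this mix in the pooled ratios was not tested. The ratio was 1.45 (1.29 to 1.63) in CA1-like, 1.27 (1.18 to 1.37) in granule neuron-like, 0.702 (0.600 to 0.822) in oligodendrocyte-like and 0.671 (0.533 to 0.843) in microglia-like nuclei. Other single-exon genes moved the same way in part. Median UMIs per nucleus were higher also in oligodendrocyte-like and microglia-like nuclei, where the histone ratio was below 1. Because the counts of the doxorubicin plus ACY-1083 library arose differently, these medians are not a like measure of depth. The median log2 ratio of single-exon genes in the same comparison was 0.28 in CA1-like, 0.15 in granule neuron-like, -0.55 in oligodendrocyte-like and -0.55 in microglia-like nuclei. It was 0.02 in astrocyte-like nuclei, where the histone ratio was 1.22. In precursor-like nuclei it was -0.19, where the histone ratio was 0.665 (0.487 to 0.903). Median UMIs per nucleus in CA1-like, granule neuron-like, oligodendrocyte-like and microglia-like nuclei were 7122 against 2160.5, 4428 against 1422, 1250 against 679.5 and 1580.5 against 1365. The part of these shifts in the histone ratios was not tested.

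Histone variants listed as replication-independent come mostly from genes with ordinary polyadenylated mRNAs and are mostly not confined to S phase. They had more UMIs in total than the members in every library (13338, 16225 and 19107 UMIs over 11 genes). None of the 11 was past 1.5-fold between doxorubicin and control in either direction, beside 3.22% and 2.85% of all genes, and their median log2 ratio was -0.05. H3f3a, an H3.3 gene, was at 112 CPM in control and 140 with doxorubicin, a ratio of 1.26 (1.19 to 1.33), H2afz, an H2A.Z gene, at 1.14 (1.08 to 1.20) and H2afj at 1.15 (1.08 to 1.23). The other H3.3 gene, H3f3b, was at 1.04 (0.996 to 1.08). Per nucleus, 2 of 11, H2afy2 and H2afv, were over 1.5-fold higher with doxorubicin plus ACY-1083 than with doxorubicin, beside 72.0% of all genes; H2afy2 has 43308 bases of intron.

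Of genes with at least 20 UMIs, no histone chaperone and no histone mRNA processing or transcription gene was past 1.5-fold between doxorubicin and control. Few of all genes were (3.22% higher and 2.85% lower). Chaf1b (3 and 2 UMIs) and Zfp473 (5 and 6 UMIs) fell below this minimum. Among 12 processing and transcription genes with enough UMIs, 0 were past 1.5-fold, with a median log2 ratio of -0.07; Slbp was at 43.7 and 42.8 CPM, a ratio of 0.980 (0.889 to 1.08), and Npat, the activator of histone gene transcription, at 0.898 (0.789 to 1.02). Srrt (0.906) and Sympk (0.926) had intervals below 1. Among 11 chaperones 0 were past 1.5-fold, with a median of -0.14 beside -0.04 over all genes. Of these, 4 had intervals below 1: Atrx (0.895), Cabin1 (0.856), Ubn1 (0.889) and Supt16 (0.907). The share of all genes with an interval below 1 is not given here, for these or the other lists. Intervals are narrow for genes with many UMIs, such as Atrx (9468 and 9460), so the 4 are not read as a result about chaperones. With doxorubicin plus ACY-1083 over doxorubicin, 9 of 13 processing genes and 9 of 12 chaperones were over 1.5-fold higher per nucleus, a share near the background of 72.0%. Of 14 S phase and cell cycle genes, Top2a was higher with doxorubicin (18 and 32 UMIs, ratio 1.59, 0.868 to 3.01) and Mcm2, a helicase subunit, lower (36 and 24 UMIs, ratio 0.597, 0.341 to 1.03), both with intervals that included 1; the background is again 3.22% and 2.85%. Within 1.5-fold, Mki67 (0.789, 0.647 to 0.963) and Mcm4 (0.740, 0.553 to 0.987) had intervals below 1, and the median log2 ratio was -0.05.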

How the data were processed

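The authors deposited whole-number UMI counts; per the file headers, Cell Ranger 4.0.0 wrote those of control and doxorubicin and 5.0.0 those of doxorubicin plus ACY-1083, while version 6.0.0 and mm10 stand in the submitters' processing notes. No source used here says if introns were counted. The lowest barcode of each library had 500 UMIs. Nuclei with at least 300 genes and under 5% mitochondrial UMIs were kept. Scrublet's automatic threshold marked under 0.03% of barcodes, so a score of 0.25 was used instead (4.14%, 4.69% and 2.82% removed). Nuclei were clustered in scanpy 1.11.5 without the members (10000 UMIs per nucleus, log, 2000 variable genes, 30 components, 15 neighbours, Leiden resolution 1.5). A cluster was named for the class with the highest median log2 fold over its markers (20 CPM added), if that median was at least 0.5 and 0.3 above the next class. The resolution, this naming rule and the doublet score were chosen after seeing the data. Of 35 clusters, 27 were named and 1 was set apart for over 3 times the UMIs of its class. UMIs were summed per library or class. Ratios have Clopper-Pearson intervals, and levels have exact Poisson intervals. The ratio intervals were run on simulated counts drawn with Poisson error alone, the model they assume. That run checks the code and cannot speak to spread between nuclei, mice or libraries. Genes with at least 20 UMIs in the 2 libraries were counted against a fold of 1.5. Members with at least 100 UMIs in the 3 libraries are described singly, and in a class those with at least 50. Sharing was computed on 50-base windows of GENCODE vM21 models, which matched 32235 of 32285 genes (99.85%); all 67 members matched a RefSeq gene by synonym and position. The members and gene lists were chosen with earlier results of these data known. Alternatives covered doublets, the gene filter, the scale, thinning, the members summed, the UMI minimum and the clustering.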

Additional observations from a re-analysis of the deposited data

How the results depend on the processing

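The summed ratio of doxorubicin to control stayed below 1 under every alternative run, from 0.891 with nuclei thinned to 1000 UMIs (2886 and 3264 shallower nuclei left out) to 0.955 with edgeR TMM factors, and Hist1h4i in granule neuron-like nuclei stayed between 0.520 and 0.543. The summed ratios of doxorubicin plus ACY-1083 to doxorubicin and to control depended on the choices: 1.26 and 1.16 with at least 600 genes per nucleus, 1.47 and 1.39 without Hist3h2ba, 1.14 and 1.02 for members without intron, 1.13 and 1.03 per UMI of single-exon genes, 1.12 and 1.03 when mitochondrial genes were also left out (added after seeing the data), and 0.473 and 0.437 in CPM. With intronless members and the single-exon scale together, also added after seeing the data, they were 0.943 and 0.828, or 0.934 and 0.824 without mitochondrial genes. Members 1.5-fold lower with doxorubicin numbered 3 with at least 50 UMIs and 17 with at least 1, and higher ones 9 with at least 1. With doxorubicin plus ACY-1083 over doxorubicin, higher members numbered 3 with at least 50 UMIs, 24 with at least 1 and 4 on the single-exon scale, and lower ones 7 with at least 1. The lower minimum admits more genes, many with few UMIs, and the cause of the other changes was not tested. The share of all genes past 1.5-fold under these settings is not given here. These counts, of either comparison, therefore show only that the number depends on the setting. In oligodendrocyte-like nuclei with at least 600 genes the sum was 0.870, against 1.05. At resolution 0.5 the CA1-like and CA2/CA3-like clusters of control and doxorubicin were unnamed, so no value was had. Of the alternative values of summed ratios, counts, class ratios and Hist1h4i in granule neuron-like nuclei, 24 moved beyond their counting interval or 1.5 times the count and 48 did not. Of those of single members 8 moved and 100 did not; 3 crossed to the other side of 1 on the single-exon scale without mitochondrial genes and 4 with at least 600 genes per nucleus. No paired analysis was possible because each group is 1 library.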
